A study of Carica papaya with 55 samples.

Results

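Stamens of mature male papaya flowers were compared with stamens of younger male buds that had passed meiosis, over every feature of the deposited tables, which cover the sex-linked regions of both sex chromosomes. The comparison took the 3 libraries of stamens from buds of 15 to 20 mm (stage S5) and the 3 libraries of stamens from buds of 7 to 12 mm (stage S4), 6 of the 55 libraries of the series, as their labels assign them. All 193 features entered, 97 from the X and 96 from the Y (the male-specific region), and 139 of them passed a filter on low counts. Every stamen, pollen and pistillode library named here came from male flowers of the genotype AU9, with no treatment given in the labels. Pollen (3 libraries, buds of 15 to 20 mm), stamens of stages S1 to S3 before meiosis (9 libraries, buds of 1 to 6.5 mm) and pistillodes (pistils that abort in the male flower) at S4 and S5 (3 libraries each) are given beside them. The labels number the libraries of a group as replicates and do not say that they came from separate plants. So p-values measure the spread between libraries of a group, which may be technical. For the edgeR p-values that spread was estimated over all 55 libraries in 19 groups, not from the 6 libraries compared alone. The fit on those 6 libraries alone is given below as an alternative.

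Papaya has male, female and hermaphrodite plants, and the sex of a plant follows from an X and a Y chromosome, of which the Y carries a male-specific region (MSY in feature names) that does not recombine with the X. Many genes of the region have a copy on each chromosome, named with the suffixes X and MSY. A stamen holds an anther and a filament. After meiosis the microspores inside the anther develop into pollen, while the layer that nourishes them, the tapetum, breaks down, and the mature anther opens to shed the pollen. The RNA of a mature stamen can therefore include RNA of the pollen inside it. In such bulk samples fewer cells of a type and less RNA per cell cannot be told apart.

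The values were fragment counts per feature. Totals over the sex-linked features were 62186 to 91755 at S4 and 96181 to 106846 at S5, and 27741 to 28555 in pollen. These totals do not measure sequencing depth, since they cover the sex-linked features alone. Levels are given as CPM, counts scaled to 1000000 per library, with TMM (trimmed mean of M-values) factors applied, so a level is relative to other sex-linked features. Feature names are those of the files, none of the 193 matched the reference table of 48816 papaya genes, and no function is given for any of them. Reads that map to several places were counted at each place. Pairs of copies were therefore classed by the share of a pair's counts that fell on the Y copy in female libraries, which carry no Y. There were 21 separate pairs (under 5%), 10 partly shared, 26 shared (over 25%) and 12 with too few female counts to class, and a count in a shared pair cannot be assigned to a chromosome.

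Replicate 3 of the S5 stamens stood apart from the other two. It lay more than 2 times above or below both other S5 libraries for 19 features of the 139, against 4 each for replicates 1 and 2 and 3, 3 and 6 for the S4 libraries. The median coefficient of variation over 124 features was 11.8% at S4 and 22.9% at S5. Values without replicate 3 are given beside several of the results in which it lay far from the other S5 libraries.

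Of the 139 features tested, 54 (38.8%) passed an adjusted p of 0.05 in edgeR's quasi-likelihood test, adjusted by Benjamini-Hochberg over the 139. Of these, 18 rose from S4 to S5 (12.9%) and 36 fell (25.9%). The rises had a median log2 difference of 1.67 and ranged from 0.29 to 9.14, and the falls had a median of -1.07 and ranged from -10.78, a fitted value for a feature with no S5 counts, to -0.37. Over all features tested the median was -0.15. The 3 libraries of S5 lay wholly above those of S4 for 25 features (18%) and wholly below for 38 (27.3%), among them 16 of the 18 that rose and 29 of the 36 that fell. Without S5 replicate 3, 57 features passed, 17 up and 40 down, of which 48 were among the 54.

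**Figure D1:**
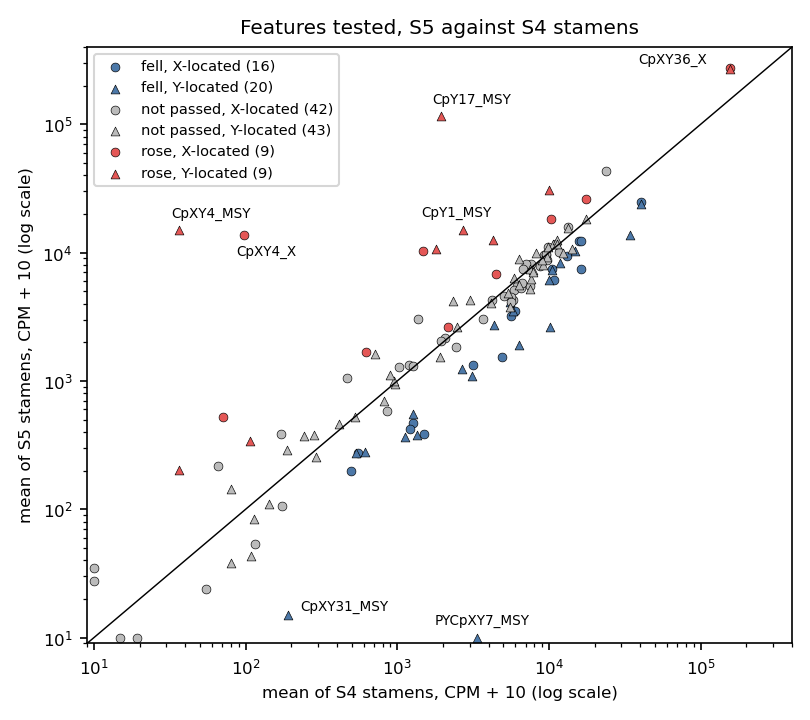
Mean level of each of the 139 tested features in S5 stamens against S4 stamens, in CPM plus 10 on log axes, with the line of equality. Circles are X-located and triangles Y-located features, red rose, blue fell and grey did not pass. CpY17_MSY and both copies of CpXY4 lie far above the line and PYCpXY7_MSY far below it.

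The balance of rises and falls depended on the scaling. With size factors by the median of ratios 16 rose and 39 fell, with table totals 13 and 58, with TMM on X-located features 22 and 29, and with TMM without the 5 features with most counts 22 and 31. On all 5 scalings 13 features rose and 29 fell, and none was called in both directions. The median over all features moved to -0.52 with table totals and 0.00 with TMM on X-located features. Without copies of shared or partly shared pairs, 15 of 65 features passed, 10 up and 5 down.

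The largest rise in absolute level was that of CpY17_MSY, a feature of 4 exons on the Y (3981090 to 3985922, minus strand) with no X partner. The sources used here do not name the genome build of the coordinates. Its counts were 113, 130 and 144 in the 3 S4 libraries and 8739, 11895 and 2265 in the 3 S5 libraries. All S5 libraries lay above all S4 libraries, with replicate 3 the lowest of them. It took 0.123 to 0.209% of all sex-linked counts per library at S4, 2.12 to 12.4% at S5 and 29.9 to 35.2% in pollen. The mean level was 1920.1 ± 373 CPM at S4 and 115786 ± 78598 at S5 (SD, n = 3), a log2 difference of 5.92 (SE 0.38, edgeR adjusted p = 1.01e-16), or 6.37 without S5 replicate 3. Before meiosis the level was already present and low, at 1467 ± 251, 1439.6 ± 236 and 1090.3 ± 148 CPM in S1, S2 and S3 stamens (SD, n = 3). Pollen held 402315 ± 67689 CPM. In the 21 female libraries, which carry no Y, CpY17_MSY took 0.182 to 0.641% of all sex-linked counts. Its low counts in stamens of S1 to S4 therefore cannot be assigned to the Y.

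The 2 copies of CpXY4 rose most on the log2 scale. CpXY4_MSY (Y, 3699169 to 3729741, 2 exons) had 0, 3 and 2 counts at S4 and 1026, 1875 and 29 at S5. CpXY4_X (X, 2126840 to 2127133, 1 exon) had 5, 10 and 2 counts at S4 and 902, 1721 and 51 at S5. In both, replicate 3 of S5 was more than an order of magnitude below the others and still above every S4 library. The log2 differences were 9.14 (SE 1.20, edgeR adjusted p = 4.97e-07) for the Y copy and 7.30 (SE 1.06, adjusted p = 3.02e-05) for the X copy, or 9.72 and 7.87 without S5 replicate 3. They rest on S4 counts of 10 or fewer. DESeq2 gave 8.99 with an adjusted p of 0.00303 for the Y copy and 7.12 with 0.546 for the X copy, which is a lost call.

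The copies of CpXY4 did not follow the same course before S4. CpXY4_X had no count in any of the 9 stamen libraries of S1 to S3. CpXY4_MSY reached 10339 ± 6493 CPM at S3 (SD, n = 3), with counts of 800, 221 and 1173, and was back near 0 at S4. Over the 3 libraries of a stage, and per kilobase of exon, the counts were 0 for the X copy and 3731 for the Y copy at S3, and 9095 and 4983 at S5. Pollen had 459, 401 and 231 counts of the X copy and 663, 641 and 602 of the Y copy. This pair had too few counts in females for a class.

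CpXY21 rose on both chromosomes. CpXY21_X (X, 4319560 to 4334142, 13 exons) had levels of 1867, 1235 and 1305 CPM at S4 and 9156, 17644 and 3942 at S5. The libraries of the stages did not overlap, and replicate 3 was again the lowest of S5. The log2 difference was 2.80 (SE 0.33, edgeR adjusted p = 5.82e-09), and that of CpXY21_MSY (Y, 4890412 to 4904966, 13 exons) was 2.56 (SE 0.38, adjusted p = 4.97e-07). Without S5 replicate 3 these were 3.18 and 2.93. The pair is partly shared. CpXY21_X stood at 2417 ± 189, 3775 ± 1268 and 10828 ± 1499 CPM in S1, S2 and S3 stamens (SD, n = 3), so S4 was the lowest of the stamen stages in mean level, and pollen held 11921 ± 4032.

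CpY1_MSY, with no X partner (Y, 35857 to 36232, 2 exons), had 193, 232 and 112 counts at S4 and 992, 1145 and 924 at S5. Here the 3 S5 libraries were close to each other and replicate 3 was not far below. The level went from 2696 ± 1166 to 15024 ± 2757 CPM (SD, n = 3), a log2 difference of 2.48 (SE 0.56, edgeR adjusted p = 0.000446), with 13226 ± 3256 CPM in pollen. CpX26, an X feature with no Y partner (X, 3857191 to 3857577), had 6, 6 and 0 counts at S4 and 33, 43 and 29 at S5, a log2 difference of 3.08 (SE 0.74, adjusted p = 0.00108), and missed the threshold in DESeq2 (adjusted p = 0.0645). CpX1, also without a partner (X, 1956491 to 1956845), rose from 609 ± 149 to 1660.1 ± 576 CPM (log2 difference 1.45, SE 0.34, adjusted p = 0.000579). Its S5 mean lay below the 3049 ± 476 CPM of S1 stamens. PXCpXY21_MSY (Y, 5110541 to 5110903) rose from 0, 3 and 2 counts to 14, 15 and 10 (log2 difference 2.85, SE 0.83, adjusted p = 0.00663), while its X copy had at most 2 counts in any of the 6 libraries.

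**Figure D2:**
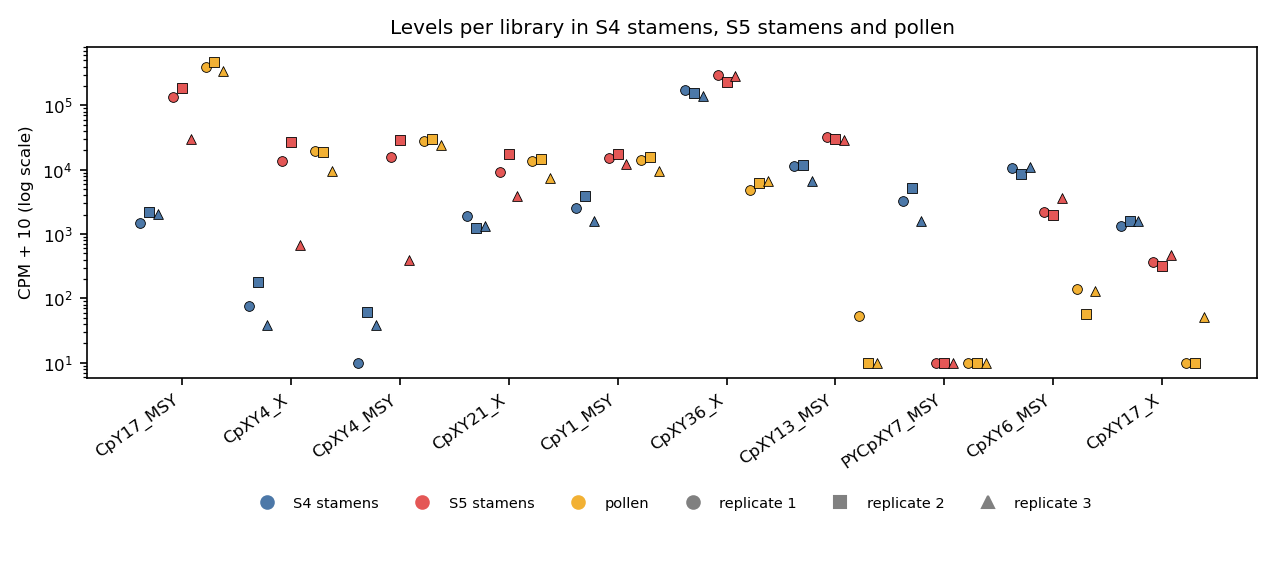
Level per library in CPM plus 10 (log scale) of 10 features in S4 stamens (blue), S5 stamens (red) and pollen (yellow), with a symbol for each replicate number. S5 replicate 3 (red triangle) is the lowest S5 library for CpY17_MSY, both copies of CpXY4, CpXY21_X and CpY1_MSY, and the highest for CpXY6_MSY and CpXY17_X.

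Pollen and early stamens were used to sort features without the S4 and S5 stamens. In all, 16 features had a mean level in pollen at least 4 times that of S1 to S3 stamens (pollen-high), and 54 had a level at least 4 times lower (pollen-low). Each list holds both copies of several shared or partly shared pairs, whose reads can be counted at both copies. Counts of members and sums over them, here and in the next paragraph, are therefore not over independent features. From S4 to S5, 7 of the 16 pollen-high features rose and 2 fell, with a median log2 difference of 1.00. In the pollen-low group 3 of 54 rose and 25 fell, with a median of -0.52. Over all features tested 12.9% rose and 25.9% fell, with a median of -0.15. Without S5 replicate 2 the pollen-high median was 0.53 with 5 rises and 2 falls, and without S5 replicate 3 it was 1.38 with 7 rises and 0 falls. The pollen-low median was -0.33 without S5 replicate 2 and -0.85 without S5 replicate 3, with 19 and 30 falls. DESeq2 called 3 rises and 2 falls among the pollen-high features. The 7 that rose were both copies of CpXY4, CpY17_MSY, CpX26, CpY1_MSY, CpXY42_X and CpXY46_MSY. Those that fell were the copies of the shared pair CpXY40, and the pollen-low features that rose were PXYCpXY1_X and the copies of CpXY36. CpXY46_MSY stood at 320, 589 and 79.4 CPM in S5 replicates 1, 2 and 3, which overlapped the S4 libraries. Its log2 difference was 1.73 (edgeR adjusted p = 0.0308), or 2.20 without S5 replicate 3, and DESeq2 did not call it (adjusted p = 0.0553). CpXY46 is a shared pair, and the difference of 1.18 for its X copy did not pass (edgeR adjusted p = 0.169).

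The summed level of the 16 pollen-high features was 48796 to 58201 CPM at S4, 227429, 319204 and 88970.3 CPM in S5 replicates 1, 2 and 3, and 531023 to 694427 CPM in pollen. Every S5 library exceeded every S4 library, and replicate 3 was nearest to S4. Without CpY17_MSY the sums were 46597 to 56137 CPM at S4 and 94298, 134941 and 59005 CPM at S5. The summed level of the 54 pollen-low features, which include the abundant copies of CpXY36, was 552783 to 633691 CPM at S4 and 762234, 624002 and 821014 CPM at S5, so these groups of libraries overlapped. S5 replicate 3 was the lowest S5 library for 13 of the 16 pollen-high features and the highest for 35 of the 54 pollen-low ones. Over all 139 features it was the lowest for 55 and the highest for 60. Whether the amount of pollen in a stamen sample accounts for these differences was not tested.

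CpXY36 was the most abundant pair in the stamens. CpXY36_X (X, 4948529 to 4951174, 6 exons) and CpXY36_MSY (Y, 7637840 to 7640485, 6 exons) form a shared pair, and their counts were nearly equal in each library, 13143 and 13048 in S4 replicate 1 for example. The X copy had 174046, 155678 and 140099 CPM at S4 and 298648, 230689 and 288687 at S5. The S5 libraries all lay above the S4 libraries, and replicate 3 did not stand apart. The log2 difference was 0.80 for each copy (SE 0.14 and 0.15, edgeR adjusted p = 1e-05 and 3.79e-05). Together the copies took 27.8 ± 2.16% of all counts at S4 and 37.4 ± 5.65% at S5 (SD, n = 3). Reads that map to both copies were counted at each, so these are shares of counts and can hold the same fragments for both copies. In the mean the level of the X copy rose with every stamen stage, from 25335 ± 1239 CPM at S1 to 65045 ± 4890 at S3, while pollen held 5898 ± 914 CPM.

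Features that were nearly silent in early stamens were counted next. In all, 6 features had at most 5 counts over the 9 libraries of S1 to S3 and a mean of at least 10 counts at S4 or S5. They were CpXY4_X, CpX26, both copies of CpXY13, CpXY10_MSY and PYCpXY7_MSY.

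CpXY13 is a separate pair. CpXY13_MSY (Y, 907975 to 908290, 1 exon) had 4 counts over the 9 early libraries, 865, 707 and 464 counts in the S4 libraries and 2152, 1947 and 2194 in the S5 libraries. Its level rose from 10023 ± 2931 to 30657 ± 1927 CPM (SD, n = 3; log2 difference 1.61, SE 0.44, edgeR adjusted p = 0.00622), and the S5 libraries differed little from each other. CpXY13_X (X, 3895165 to 3898270, 3 exons) had no count at S1 to S3, 2452, 1366 and 1099 counts at S4 and 2702, 2743 and 3447 at S5. Its S5 levels of 41162 to 45603 CPM lay above the S4 levels of 15754 to 32471 CPM, but the log2 difference of 0.86 (SE 0.53) did not pass (adjusted p = 0.23). It passed in the fit on the S4 and S5 libraries alone (log2 difference 0.96, adjusted p = 0.0416). Pollen had 1 count of the Y copy and 0 of the X copy over 3 libraries. DESeq2 did not call the Y copy (log2 difference 1.49, adjusted p = 0.85).

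CpXY10_MSY had 352, 191 and 338 counts at S4 and 414, 258 and 2077 at S5. Replicate 3 of S5 alone was high, and the other S5 libraries lay within or near the range of S4. The call (log2 difference 1.57, SE 0.56, edgeR adjusted p = 0.0312) was lost without that library, with a log2 difference of 0.28 and an adjusted p of 0.659. DESeq2 did not call CpXY10_MSY either (log2 difference 1.46, adjusted p = 0.81). Its X copy had 0 counts at S4 and 4 at S5 over the 3 libraries. Over S1 to S3 the Y copy had 5 counts, pollen had 1, and the pistillodes of S4 and S5 had 0. CpXY10_MSY was named after its values were seen.

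**Figure D3:**
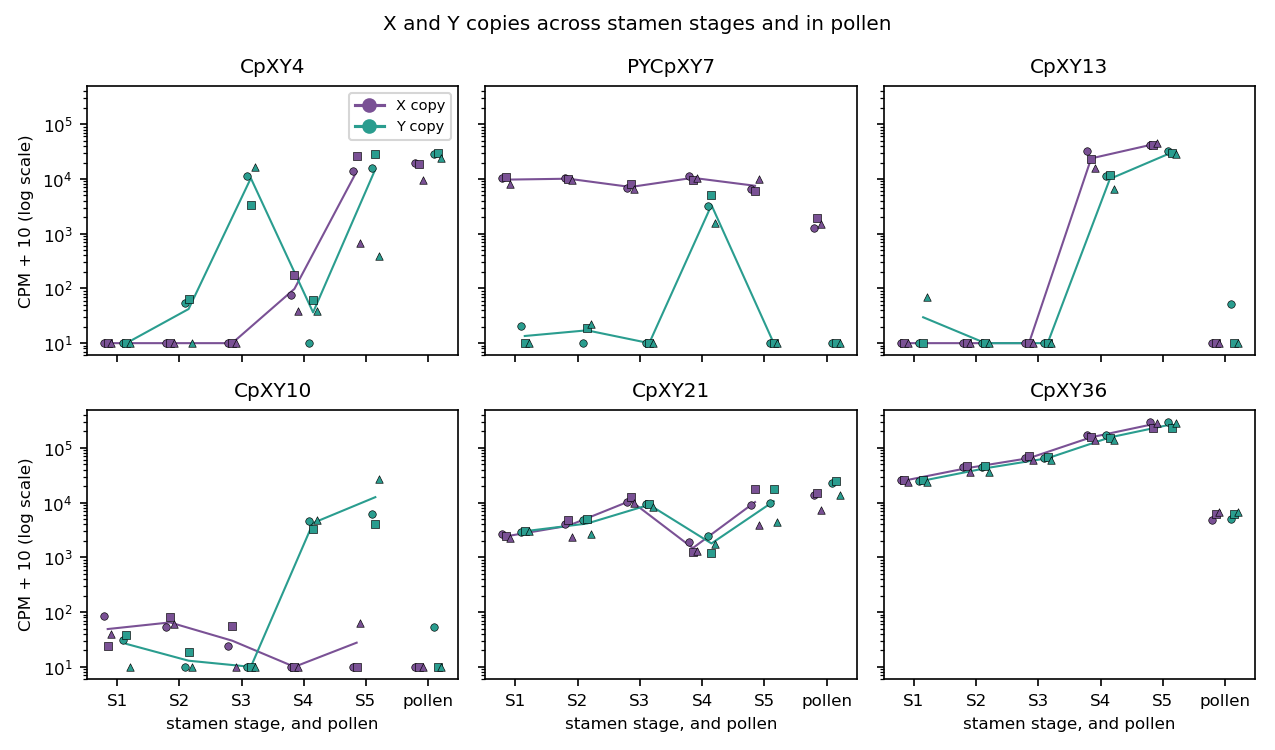
Level in CPM plus 10 (log scale) of the X copy (purple) and Y copy (green) of 6 pairs in stamens of S1 to S5 and in pollen. Points are libraries, with a symbol for each replicate number, and lines join the means of the stamen stages. PYCpXY7_MSY is high at S4 alone, CpXY4_MSY is high at S3, S5 and in pollen, and both copies of CpXY13 appear at S4.

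Smaller rises were called for 3 named X copies whose Y copies did not pass, and for PXYCpXY1_X, given last. PYCpXY5_X (X, 2130601 to 2130861) rose from 10224 ± 1889 to 18183 ± 3724 CPM (SD, n = 3; log2 difference 0.83, SE 0.14, edgeR adjusted p = 8.29e-06). It lies 3467 bases from CpXY4_X. CpXY12_X (X, 3680336 to 3687131) rose by 0.57 on the log2 scale (SE 0.12, adjusted p = 0.000246), a call lost with scaling by table totals and in the fit on the S4 and S5 libraries alone. CpXY42_X (X, 5093254 to 5098546) rose by 0.62 (SE 0.25, adjusted p = 0.0425). It kept its call in 7 of 16 settings and lost it without S5 replicate 3 (adjusted p = 0.136). The log2 differences of the Y copies of these 3 were 0.64, 0.06 and 0.50, with adjusted p of 0.271, 0.863 and 0.0886. CpXY42 is a shared pair, so its counts cannot be assigned to the X, and CpXY42_MSY passed in 6 other settings. The Y to X ratio of PYCpXY5 differed by -0.21 on the log2 scale and did not pass (limma adjusted p = 0.754). PXYCpXY1_X rose by 0.29 (SE 0.12, edgeR adjusted p = 0.0455), and the difference of 0.45 for its Y copy did not pass (adjusted p = 0.369).

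The largest fall was that of PYCpXY7_MSY (Y, 3437881 to 3438796, 5 exons), the Y copy of a separate pair. It had 245, 305 and 109 counts in the S4 libraries and 0 in each of the 3 S5 libraries. The stages did not overlap, and against a floor of 3 counts over the S5 group the level was at least 221-fold higher at S4. The edgeR adjusted p was 4.97e-07. The feature had 3 counts over the 9 libraries of S1 to S3 and 0 in pollen, so S4 was the one stamen stage at which it was abundant. In pistillodes its mean level was 212 ± 228 CPM at S4 and 0 at S5 (SD, n = 3). PYCpXY7_X (X, 2253158 to 2263261, 7 exons) was present throughout, at 10477 ± 822 CPM at S4 and 7503 ± 2303 at S5, a log2 difference of -0.48 (SE 0.15, adjusted p = 0.00811). That call held in 11 of 17 settings.

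CpXY31_MSY, 1 exon of 618 bases on the Y (6950261 to 6950878), went from 14, 10 and 13 counts to 1, 0 and 0. The S4 to S5 ratio was 37.3 with a 95% counting interval of 6.28 to 1511, and the edgeR adjusted p was 0.00911. Its X copy had 2 counts over the S4 libraries and 0 at S5. At S3 both copies had more counts, 115 on the Y and 71 on the X over 3 libraries.

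CpXY6_MSY (Y, 4435864 to 4504632, 10 exons), the Y copy of a separate pair, had 792, 510 and 777 counts at S4 and 144, 128 and 276 at S5. All S5 libraries lay below all S4 libraries, and replicate 3 was the highest of S5. The level fell from 10085 ± 1302 to 2609 ± 909 CPM (SD, n = 3; log2 difference -1.95, SE 0.23, edgeR adjusted p = 5.89e-09), and the difference was -2.27 without S5 replicate 3. CpXY6_X fell less, from 5634 ± 453 to 3181 ± 1186 CPM (log2 difference -0.82, SE 0.17, adjusted p = 0.000165). That call was lost in the fit on the S4 and S5 libraries alone (adjusted p = 0.0976). At S1 to S3 the Y copy stood at 4128 to 6364 CPM in the mean, so S4 was its highest stamen stage, and pollen held 99.1 ± 45.3 CPM.

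Several further pairs fell on both chromosomes, and most of these counts cannot be assigned to a chromosome. The partly shared pair CpXY17 fell, with log2 differences of -1.97 for the X copy (SE 0.21, edgeR adjusted p = 4.51e-10) and -1.65 for the Y copy (SE 0.24, adjusted p = 4.97e-07). CpXY17_X had 1311, 1557 and 1591 CPM at S4 and 350, 310 and 463 at S5, with no overlap. Its level was lower at each later stage in the mean, from 9704 ± 2142 CPM at S1 to 3737 ± 229 at S3 (SD, n = 3), and pollen held 13.5 ± 23.4 CPM.

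The shared pair CpXY34 fell, with log2 differences of -1.53 for the X copy and -1.86 for the Y copy (edgeR adjusted p = 3.03e-10 and 4.97e-07). In the partly shared pair CpXY26 the differences were -1.24 and -1.49 (adjusted p = 1.63e-05 and 2.62e-07). For the shared pair CpXY24 they were -1.45 and -1.12 (adjusted p = 4.97e-07 for each). For the shared pair CpXY41 they were -1.12 and -1.32 (adjusted p = 0.0115 and 0.00455), or -1.68 and -1.74 without S5 replicate 3. CpXY33_X_v2 and CpXY33_MSY had differences of -1.34 and -1.20 (adjusted p = 0.00138 and 0.000452). The abundant pair CpXY47, at 40429 ± 1680 CPM for the X copy at S4 and 24791 ± 4815 at S5 (SD, n = 3), had log2 differences of -0.71 for the X copy and -0.77 for the Y copy (adjusted p = 1.27e-05 and 9.49e-06). In the fit on the S4 and S5 libraries alone the CpXY47 calls were lost (adjusted p = 0.0613 and 0.0626), and so was that of CpXY41_X (adjusted p = 0.0929).

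CpXY40 fell, with log2 differences of -1.68 for the X copy and -1.74 for the Y copy (edgeR adjusted p = 0.0417 and 0.026), but these calls were among the least stable. CpXY40_MSY had 408, 272 and 623 counts at S4 and 112, 204 and 63 at S5, and without S5 replicate 3 the adjusted p was 0.105 for the Y copy and 0.142 for the X copy. CpXY40_X passed in 5 of 16 settings and CpXY40_MSY in 10 of 16.

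Neighbouring features did not always move the same way. CpXY35_MSY and CpXY35_X lie next to the CpXY36 copies, 447 bases away on each chromosome. Both CpXY35 copies fell, with log2 differences of -0.98 and -1.02 (edgeR adjusted p = 0.00622 and 0.0031), while both CpXY36 copies rose. On the X, CpXY40_X and CpXY41_X, which fell, are 1020 bases apart, and CpXY42_X, which rose, lies 3300 bases beyond CpXY41_X. The pairs CpXY35, CpXY36, CpXY40, CpXY41 and CpXY42 are all shared, so these counts cannot be assigned to a chromosome. The calls of CpXY40_X and CpXY42_X held in 5 and 7 of 16 settings.

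X-located and Y-located features had similar shares of calls, but copies of shared and partly shared pairs are alike by the counting. Reads that map to both copies were counted on both chromosomes. Without these copies 5 of 29 X-located features rose and 2 fell, and 5 of 36 Y-located features rose and 3 fell. Among 67 tested on the X there were 9 rises and 16 falls (median log2 difference -0.15). Among 72 tested on the Y there were 9 rises and 20 falls (median -0.12, or 0.03 with TMM on X-located features). Among the 27 X copies of shared pairs 2 rose and 9 fell (median -0.44), and among the 26 Y copies 2 rose and 11 fell (median -0.48). Of the 21 X copies of separate pairs 3 rose and 5 fell, and of the 19 Y copies tested 1 rose and 5 fell, with medians of 0.05 and -0.03 that changed sign with the scaling. Of the 5 X features without a Y partner 2 rose and 0 fell, and for the Y the counts were 2 and 1 of 13. Among 25 shared pairs with both copies tested, both copies fell in 9 and rose in 1, and the call differed in 4. Agreement between copies of a shared pair is not a separate result for each chromosome. Among 19 such separate pairs both copies fell in 4 and the call differed in 6.

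Whether a Y copy changed relative to its own X copy was tested by dividing Y counts by X counts in each library, a ratio that needs no scaling between libraries. Of 16 separate pairs with enough counts, 3 passed (18.8%, limma with Benjamini-Hochberg adjustment), all with a lower Y to X ratio at S5, and the median log2 difference over the 16 was -0.07. Enough counts were required at S1 to S3 as well, which left out CpXY13. In the limma fit on the S4 and S5 libraries alone 18 pairs entered and 4 passed, 3 lower and 1 higher. CpXY12 did not pass in that fit (adjusted p = 0.0974). For CpXY6 the log2 ratio was 1.02, 0.60 and 0.88 at S4 and -0.19, -0.33 and -0.32 at S5. The Y copy thus had more counts than the X copy in every S4 library and fewer in every S5 library, and the log2 difference was -1.11 (SE 0.13, limma adjusted p = 1.84e-05). For PYCpXY7 the difference was -8.15 (SE 0.48, adjusted p = 1.21e-08), a value that depends on the pseudocount of 0.5 because the Y copy had no counts at S5. For CpXY12 the log2 ratio was 0.07, -0.01 and -0.07 at S4 and -0.68, -0.64 and -0.14 at S5, a difference of -0.48 (SE 0.12, adjusted p = 0.00967). Replicate 3 was nearest to S4 for CpXY12, and without it 7 pairs passed, 5 lower and 2 higher. Without S4 replicate 2, 5 passed, and without S5 replicate 1 or 2, 2 passed, CpXY12 being lost with adjusted p of 0.0578 and 0.0532.

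**Figure D4:**
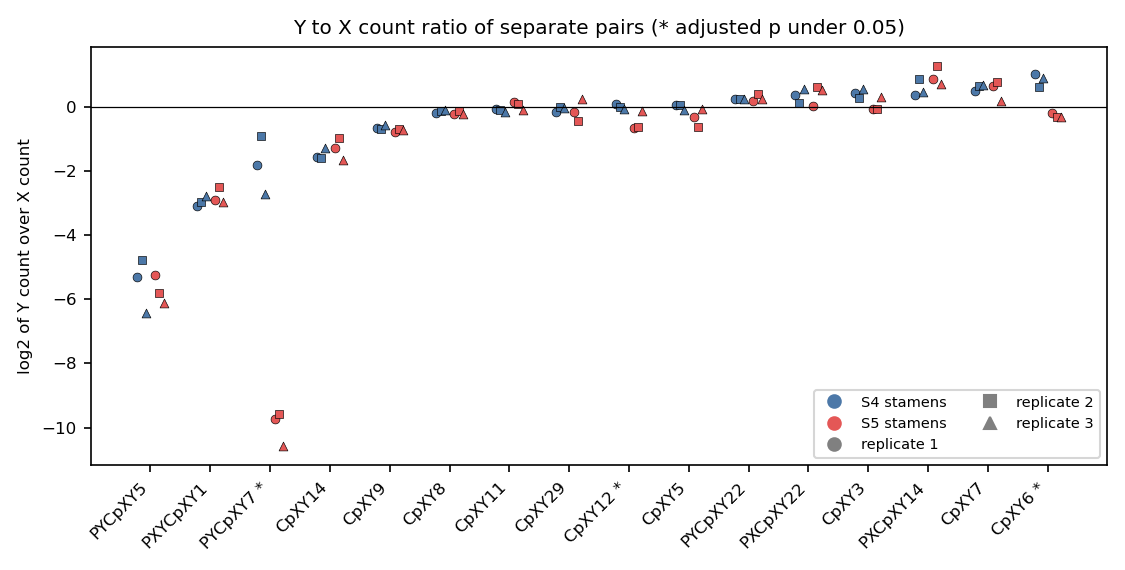
Log2 ratio of Y to X counts per library, with a pseudocount of 0.5, for 16 separate pairs in S4 (blue) and S5 stamens (red), with pairs ordered by their S4 mean and a symbol for each replicate number. CpXY6 lies above 0 in all S4 libraries and below 0 in all S5 libraries, and PYCpXY7 falls to the level that 0 counts on the Y give.

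The share of all sex-linked counts on Y-located features was 50.7 ± 0.550% at S4 and 53.8 ± 2.35% at S5 (SD, n = 3). In female groups, which carry no Y, the mean share was 26.4 to 27.4%, so the share does not measure RNA of the Y alone. The difference of 3.13 percentage points had an exact permutation p of 0.1, two-sided, the smallest that 3 against 3 libraries allow. Without CpY17_MSY the share was 50.6 ± 0.532% at S4 and 49.9 ± 0.421% at S5, a difference of -0.731 points (exact permutation p = 0.2). Over separate pairs alone it was 44.5 ± 1.10% and 41.6 ± 0.507%. Without copies of shared or partly shared pairs, but with CpY17_MSY, it was 48.1 ± 1.19% and 58.7 ± 5.01%, a difference of 10.6 points. The Y share was higher at S5 with CpY17_MSY included and lower in both of the counts that leave it out.

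The same 2 stages were compared in the pistillode, the other reproductive organ sampled from male flowers. The labels do not say whether the libraries of both organs came from the same flowers. There, 3 of 139 features (2.16%) passed for S5 against S4, all lower at S5. They were CpX1, CpXY42_X and CpXY42_MSY, with log2 differences of -1.24, -0.995 and -1.06 (edgeR adjusted p = 0.033, 0.0232 and 0.00894). At S4 the CpXY42 copies stood at 5908 ± 3255 and 8160 ± 4732 CPM in pistillodes (SD, n = 3). Totals of the pistillode libraries were 21475 to 70930 at S4 and 37595 to 78210 at S5, with replicate 3 the lowest at both stages. In S5 replicate 3 a single feature took 28.2% of the counts. Whether these libraries limited the number of pistillode calls was not tested. The change from S4 to S5 differed between stamen and pistillode for 37 features (26.6%), higher in the stamen for 13 (9.35%) and lower for 24 (17.3%). These counts were 12 and 37 with size factors by the median of ratios, 12 and 36 with table totals, 13 and 16 with TMM without the 5 features with most counts, and 12 and 40 in DESeq2. CpY17_MSY stood at 4858 ± 1379 CPM in S4 pistillodes and 4455 ± 257 in S5 pistillodes (SD, n = 3), and its difference of changes was 6.05 on the log2 scale (SE 0.47, adjusted p = 1.07e-13). CpXY21_X stood at 1410.0 ± 163 and 1035 ± 74.8 CPM in pistillodes, with a difference of 3.24 (SE 0.47, adjusted p = 2.11e-06).

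Among the falls, CpXY17_X stood at 2738 ± 477 CPM in S4 and 2337 ± 183 in S5 pistillodes, and its difference of changes was -1.75 on the log2 scale (SE 0.28, edgeR adjusted p = 1.02e-05). For CpXY6_MSY the levels were 7550 ± 1194 and 6445 ± 591 CPM (SD, n = 3), and the difference was -1.72 (SE 0.32, adjusted p = 8.53e-05). For both copies of CpXY4 and for PYCpXY7_MSY the difference of changes did not pass, with few or no counts in pistillodes. Fits on the 4 groups compared alone gave 22 calls, and without copies of shared or partly shared pairs 3 of 65 features passed.

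**Figure D5:**
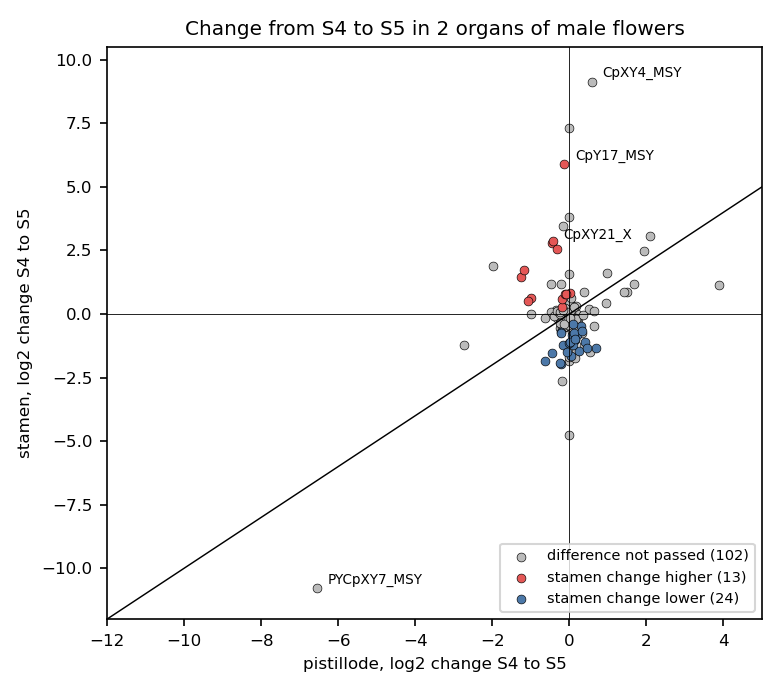
Log2 change from S4 to S5 in stamens against that in pistillodes for the 139 features tested, with the line of equal change. Red marks the 13 features with a higher and blue the 24 with a lower change in stamens (edgeR adjusted p under 0.05). CpY17_MSY and CpXY21_X lie high on the stamen axis and near 0 for pistillodes.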

How the data were processed

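Fragment counts over exons per feature were used as deposited. Per the file headers featureCounts 2.0.0 was run on read pairs, with multi-mapped reads counted at each place and no strand setting. The submitters' processing notes name another version of the counter (featureCounts 1.5.2) and the aligner HISAT2 2.0.5, after trimming with Trimmomatic 0.36. Counts of the 55 libraries were scaled by TMM, filtered with filterByExpr (54 features left out, 29 of them without counts in the S4 and S5 stamens) and fitted in edgeR 4.0.16 (R 4.3.3) with 1 coefficient per group of 19. Tests were two-sided, adjusted over the 139 features at 0.05. SEs were derived from the quasi-likelihood F.

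Ratios of Y to X counts took separate pairs with at least 20 counts in each of the 15 stamen libraries and were tested with limma 3.58.1. Named were up to 15 features per direction with the largest significant change, a mean of at least 10 counts and no overlap, their partner copies, the 5 most abundant at each stage, up to 5 per direction for the difference between organs, and significant ratios. CpXY46_MSY, CpXY10_MSY, CpXY42_X and CpX1 in pistillodes, PXYCpXY1_X and the neighbouring features were named after their values were seen. Members and lists were chosen with earlier results of these data known.

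Alternatives were other scalings, filters and sample sets, DESeq2 1.42.0, a replicate block, other pseudocounts and each library left out. Chi-square tests found no pair of identical libraries. Scripts were tested on simulated data. Counting intervals and floors cover counting error only. CpMDAR4, which the series concerns, was not analysed here. Tables used pandas 2.3.3 and SciPy 1.17.1, and figures matplotlib 3.10.9.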

Additional observations from a re-analysis of the deposited data

Results flagged for a closer look

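The change from S4 to S5 differed between stamens and pistillodes for 37 of 139 features by the test of the difference itself (edgeR, adjusted p under 0.05). On the log2 scale, as stamen minus pistillode change, the largest of the higher differences were 6.05 for CpY17_MSY, 3.29 for PXCpXY21_MSY, 3.24 for CpXY21_X, 2.91 for CpXY46_MSY and 2.89 for CpXY21_MSY. The largest of the lower ones were -2.04 for CpXY33_X_v2, -1.77 for CpXY41_MSY, -1.75 for CpXY17_X, -1.72 for CpXY6_MSY and -1.70 for CpXY24_X. PXCpXY21_MSY and CpXY46_MSY had few counts, and each lost its call in 8 settings. The S4 pistillode level of CpXY41_MSY was 54928 ± 50340 CPM (SD, n = 3), with one library far from the others.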

How the results depend on the processing

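The count of 54 calls became 33 (16 up, 17 down) with a replicate block in the S4 and S5 libraries alone, 37 (18 and 19) in those libraries without the block, and 15 without copies of shared or partly shared pairs. It ranged from 42 to 57 when a library was left out. DESeq2 gave 51 (11 and 40), no count filter 48 (21 and 27), a mean of at least 10 counts 51 (22 and 29) and a fit without pollen 51 (21 and 30). The difference between organs gave 22 calls in the groups compared alone, 18 with the block, 3 without shared or partly shared copies and 26 to 45 with a library left out, against 37. It gave 49 with size factors by the median of ratios, 48 with table totals, 38 with TMM on X-located features, 29 with TMM without the top 5 and 52 in DESeq2. For the ratios 4 passed in the S4 and S5 libraries alone, 2 with the block and 2 to 7 with a library left out. The Y share difference was 2.02 to 4.36 points with a library left out, -0.731 without CpY17_MSY, -2.94 over separate pairs and 10.6 without shared or partly shared copies. The cause of these changes was not tested, except that leaving copies out leaves 65 features.

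Deviations from the group means of same-numbered S4 and S5 libraries had correlations of -0.0997, 0.224 and 0.152, and not every library correlated best with its own number. With 3 libraries per group these values cannot decide whether replicate numbers pair the libraries. Of 36 named features with a call, 24 kept it in all settings run, and no call changed direction. The Y share difference, which was not called, changed sign as given above. With the block CpXY6_X and both copies of CpXY47 lost their calls (adjusted p = 0.0924, 0.121 and 0.0932), and CpXY13_X gained one (0.0496). CpXY42_X, both copies of CpXY40 and PYCpXY7_X lost theirs most often. Features with few counts at S4 limit the precision of the largest rises.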
